A study of Mus musculus with 6 samples.

Results

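The genes described here are 7 secreted ligands of the vascular endothelial growth factor (VEGF) and platelet-derived growth factor (PDGF) families, chosen by gene name from the 55385 genes of the deposited table. They are the VEGF family genes Vegfa, Vegfb, Vegfc and Pgf and the PDGF family genes Pdgfa, Pdgfb and Pdgfc. The set was picked with the higher Vegfc level after silencing of circCpsf6 already known. For that reason the differences of all 7 genes between the groups are given as a description, with no p-value, and nothing is supported with them. The samples were mouse Neuro2A cells, an established neuroblastoma line labelled as neuroblasts of the brain. The cells were transfected with 100 nM of a small interfering RNA (siRNA), either the comparison siRNA si-NC (3 libraries) or si-circCpsf6 (3 libraries), directed at circCpsf6, a circular RNA from the Cpsf6 gene. Both groups received a lipid transfection reagent, and all libraries came from 1 cell line. Nothing in the labels says that the replicates were separate cultures, so their spread may be technical.

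Ligands of these families are secreted dimers held together by a cystine knot, and they act on receptor tyrosine kinases of the cell surface. VEGF ligands are best known for growth of blood vessels (VEGFA through its receptor KDR) and of lymphatic vessels (VEGFC through FLT4), while VEGFB and placental growth factor (the product of Pgf) bind FLT1. PDGF ligands drive growth and migration of mesenchymal, mural and glial precursor cells through PDGFRA and PDGFRB. Tumour cells can make such ligands for neighbouring cells without carrying the receptors themselves.

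Expression was given as FPKM, a fragment count scaled to transcript length and to library size, so levels can be set side by side between genes. Between 12671 and 13080 genes per library reached 1 FPKM. Steps between low values were best matched by 14300000 to 18800000 fragments per library, but only 26.3% to 32.5% of those values were then whole within 0.1. Counts were therefore not recovered, and the counting error of low values is unknown. Cpsf6, the host gene, whose product helps to choose the 3′ ends of mRNAs, read 14.09, 14.5 and 15.2 FPKM with si-NC and 10.65, 15.06 and 14.5 FPKM with si-circCpsf6, and did not pass the test (limma adjusted p = 0.688). Its difference of -0.13 on the log2(FPKM + 1) scale was 0.017 without si-circCpsf6 replicate 1. Such a value cannot part circular from linear transcripts, so it is no check of the silencing.

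All 7 ligand genes are protein-coding in the GRCm38 annotation and lie on 7 different chromosomes. Vegfc spans chromosome 8 from 54077606 to 54187096 on the plus strand, Vegfa chromosome 17 from 46016993 to 46032369 on the minus strand, and Pgf chromosome 12 from 85166635 to 85177790 on the minus strand. Vegfb lies on chromosome 19 (6982473 to 6987651), Pdgfa on chromosome 5 (138976014 to 138997370), Pdgfb on chromosome 15 (79995874 to 80014977) and Pdgfc on chromosome 3 (81036416 to 81214040). No annotated gene overlaps any of the 4 VEGF family genes. Exons of Pdgfa share 813 bases with 6330403L08Rik, an antisense gene that read 0.43 to 1.28 FPKM over the 6 libraries. The sources used here do not say whether counting used strand, so reads of that pair could be shared. The other overlapping genes (Gm16000 at Pdgfc, Gm41361 and Mir7213 at Pdgfb) were listed at 0 in all libraries.

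The sequences just upstream of Vegfc and Vegfa are shown because these genes had the largest fold difference and the highest level of the ligands. Each is the 250 bases before the RefSeq start (GRCm38.p6), printed 5′ to 3′ along the gene with GC boxes, GGGCGG on either strand, in capitals. The Vegfc window is chr8:54077282-54077531 on the plus strand, and the Vegfa window is chr17:46032378-46032627 on the minus strand. Neither overlaps an annotated exon of its own gene.
Vegfc: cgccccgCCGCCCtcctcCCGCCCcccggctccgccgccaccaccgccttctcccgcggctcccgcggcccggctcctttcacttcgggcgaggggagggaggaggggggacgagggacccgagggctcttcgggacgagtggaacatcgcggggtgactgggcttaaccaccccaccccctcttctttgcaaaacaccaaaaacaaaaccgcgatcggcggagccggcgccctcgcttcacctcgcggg
Vegfa: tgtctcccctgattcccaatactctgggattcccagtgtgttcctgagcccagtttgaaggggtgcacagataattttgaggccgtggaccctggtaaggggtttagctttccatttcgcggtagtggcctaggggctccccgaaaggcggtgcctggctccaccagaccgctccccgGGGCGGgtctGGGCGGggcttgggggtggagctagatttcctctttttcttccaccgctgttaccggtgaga

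Both windows hold 2 GC boxes, the motif bound by SP family factors. Of 32851 RefSeq windows of this length, 32.7% hold at least 1 and 8.5% hold 3 or more. The share with at least 2 was not computed. The GC content was 71.6% at Vegfc and 59.2% at Vegfa, against a median of 52.4% over all windows. On both strands, neither window holds ACGTG (present in 16.6% of windows) or GCGTG (28.2%), which are the cores of the hypoxia response element. Neither holds the TATA box TATAAA (12.4%), the AP-1 site TGANTCA (6.7%) or the TEAD motif GGAATG (12.6%). Vegfa has 1 CCAAT box and Vegfc none, where 33.8% of windows have one. The window before a second, internal RefSeq start of Vegfa (chromosome 17, 46025164 to 46025413), of which 218 bases lie in annotated exons, holds 1 ACGTG and 1 GCGTG. RefSeq windows were matched for 6 of the 7 ligands, and no match overlapped another in the printed windows. These are letters within 250 bases, and distal elements were not searched.

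With si-NC the ligand genes differed widely in level. Vegfa, the main angiogenic ligand, was the highest at 26.3 ± 7.84 FPKM (mean ± SD, n = 3), above 86.3% of the 12974 genes whose mean over the 6 libraries reached 1 FPKM. Vegfb, a ligand of FLT1 that is broadly made in metabolically active tissue, followed at 13.1 ± 1.72 FPKM. Pgf at 4.37 ± 1.06 FPKM, Vegfc at 3.45 ± 0.61 FPKM and Pdgfa at 2.57 ± 0.22 FPKM came next. Pdgfb at 0.28 ± 0.07 FPKM and Pdgfc at 0.05 ± 0.04 FPKM were near the floor of the table, whose values have 2 decimals. Each gene was apart from the next in that order in all 3 si-NC libraries, except that Pgf overlapped Vegfc and Vegfc overlapped Pdgfa. After circCpsf6 silencing Vegfc was apart from Pdgfa as well, while Vegfb and Pgf came to overlap. Most PDGF ligand mRNA was Pdgfa, which made up 87.8% to 90.0% of the summed PDGF FPKM with si-NC and 82.6% to 95.4% with si-circCpsf6.

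**Figure D1:**
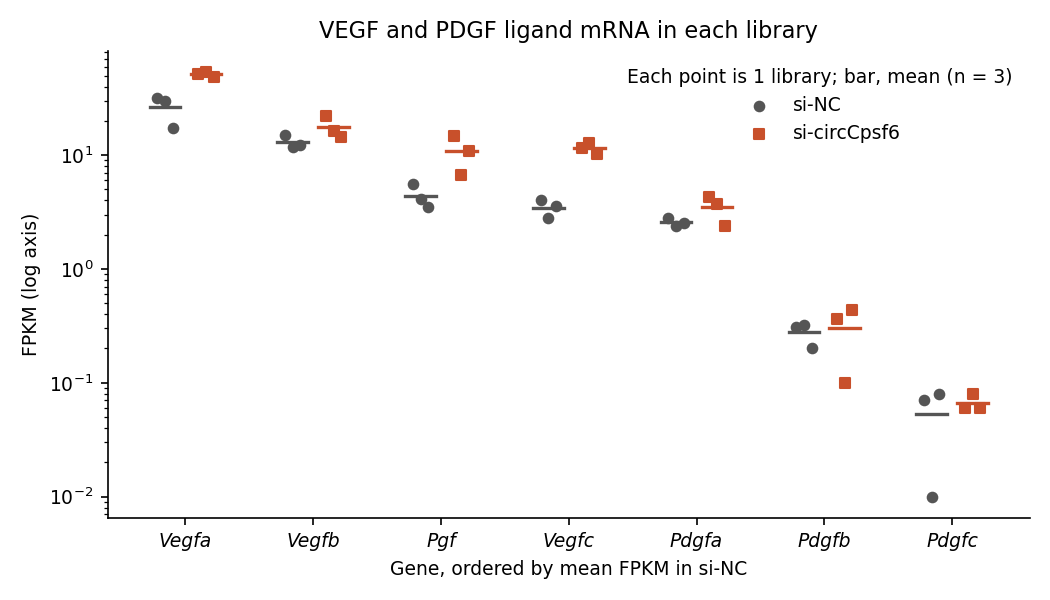
FPKM (log axis) of the 7 ligand genes in each of 3 si-NC libraries (grey circles) and 3 si-circCpsf6 libraries (orange squares), with bars at the group means. The groups lie apart for Vegfa, Vegfc and Pgf and overlap for the other 4 genes, and Pdgfb and Pdgfc sit below 1 FPKM throughout.

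Vegfc, whose product binds FLT4 and drives lymphatic vessel growth, showed the largest difference and is the gene the set was picked for. It read 4.0, 2.8 and 3.56 FPKM with si-NC and 11.65, 12.72 and 10.32 FPKM with si-circCpsf6. Every si-circCpsf6 library was above every si-NC library, and the lowest si-circCpsf6 value was 2.58 times the highest si-NC value. The group means had a ratio of 3.35, and the log2(FPKM + 1) difference was 1.50. Within each group the values were close, with the highest 1.43 times the lowest with si-NC and 1.23 times with si-circCpsf6.

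Vegfa read 31.91, 29.72 and 17.37 FPKM with si-NC and 51.74, 53.72 and 48.18 FPKM with si-circCpsf6. The groups did not overlap, and si-NC replicate 3 stood below the other 2 si-NC libraries. The ratio of the group means was 1.94, with a log2(FPKM + 1) difference of 0.98 that was 0.71 without si-NC replicate 3. In FPKM this was the largest gain of the set, from 26.3 ± 7.84 to 51.2 ± 2.81.

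Pgf, which encodes placental growth factor, a ligand of FLT1 first found in placenta, read 5.54, 4.1 and 3.47 FPKM with si-NC. With si-circCpsf6 it read 14.74, 6.71 and 10.86 FPKM. The groups did not overlap, but the si-circCpsf6 libraries were spread, the highest at 2.20 times the lowest, and the lowest of them was 1.21 times the highest si-NC value. The ratio of the means was 2.47 and the log2(FPKM + 1) difference 1.09.

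Vegfb and Pdgfa overlapped between the groups. Vegfb read 15.04, 11.84 and 12.35 FPKM with si-NC and 22.07, 16.14 and 14.38 FPKM with si-circCpsf6, a log2(FPKM + 1) difference of 0.38. Its si-circCpsf6 replicate 3 lay below si-NC replicate 1. Pdgfa, whose dimer acts on PDGFRA, read 2.8, 2.37 and 2.53 FPKM with si-NC and 4.29, 3.74 and 2.38 FPKM with si-circCpsf6, a log2(FPKM + 1) difference of 0.30. Its si-circCpsf6 replicate 3 was again the low one and fell within the si-NC range. Vegfb, Pgf and Pdgfa each had their highest value in replicate 1 of si-circCpsf6, whereas Vegfa and Vegfc had theirs in replicate 2 of si-circCpsf6.

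Pdgfb, whose dimer binds both PDGF receptors, read 0.31, 0.32 and 0.2 FPKM with si-NC and 0.36, 0.1 and 0.44 FPKM with si-circCpsf6. Pdgfc, a PDGFRA ligand secreted in a latent form, read 0.07, 0.01 and 0.08 FPKM with si-NC and 0.06, 0.08 and 0.06 FPKM with si-circCpsf6. Both genes overlapped between the groups and stayed below 1 FPKM in every library, so neither entered the fit across all genes. The remaining ligands of the families were also low. Vegfd, a second FLT4 ligand, read 0.78, 1.56 and 0.87 FPKM with si-NC and 0.34, 0.6 and 0.56 FPKM with si-circCpsf6, below si-NC in all 3 si-circCpsf6 libraries. Pdgfd read at most 0.02 FPKM.

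Summed over Vegfa, Vegfb, Vegfc and Pgf, VEGF family mRNA was 47.2 ± 9.93 FPKM with si-NC and 91.1 ± 8.37 FPKM with si-circCpsf6 (mean ± SD of 3 libraries each). As a share of that sum, Vegfc made up 5.8% to 9.7% of it with si-NC and 11.6% to 14.2% with si-circCpsf6, and Vegfb 24.4% to 33.6% and 17.2% to 22.0%, without overlap in either case. The Vegfa share overlapped between groups (47.3% to 61.3% and 51.6% to 60.2%), as did that of Pgf (8.5% to 9.8% and 7.5% to 14.7%). Shares of 1 sum are not independent of each other. Summed PDGF ligand mRNA was 2.7 to 3.18 FPKM with si-NC and 2.88 to 4.71 FPKM with si-circCpsf6, and these ranges overlapped.

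**Figure D2:**
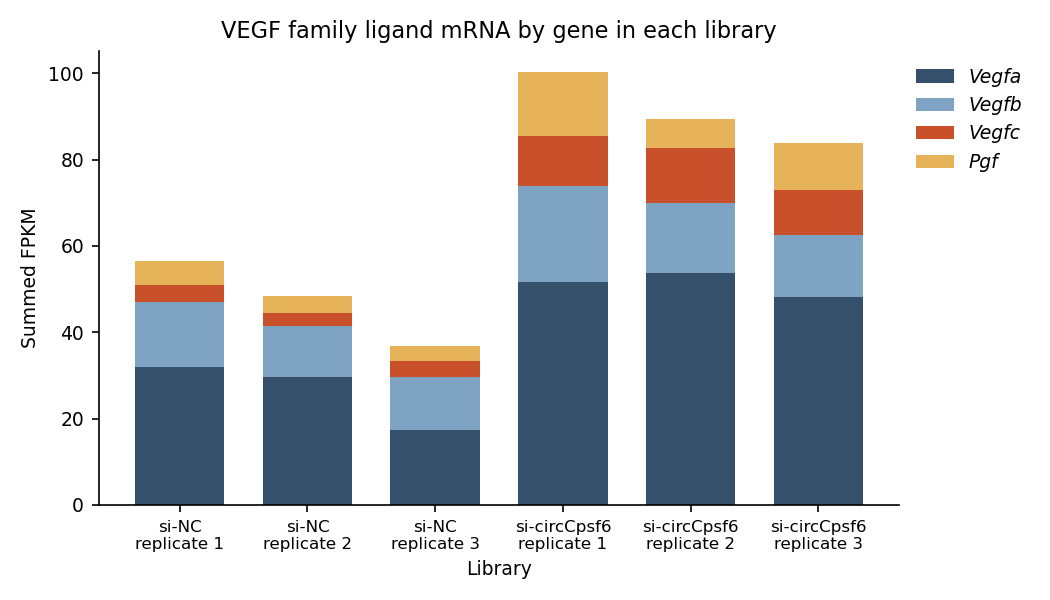
Stacked FPKM of Vegfa, Vegfb, Vegfc and Pgf in each library (no error bars, since each bar is 1 library). The 3 si-circCpsf6 sums, 83.74 to 100.2 FPKM, stand above the 3 si-NC sums, 36.75 to 56.49 FPKM, and the Vegfc segment is taller in each of them.

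A limma fit on log2(FPKM + 1) was run across those 12974 genes, with genes called at a Benjamini-Hochberg adjusted p under 0.05. The 5 ligands that entered it all had positive differences (median 0.98, against -0.02 over all tested genes). Of them 1, Vegfc, was called, which the choice of the set fixed, where 1.69% of all tested genes were called (0.902% higher and 0.786% lower). Groups did not overlap for 3 of the 5, where this held for 26.9% of all tested genes and 12.8% were apart in the higher direction. The call of Vegfc was lost when low genes were not filtered out, without si-NC replicate 3 or without si-circCpsf6 replicate 2, with log2(FPKM + 1) differences of 1.50, 1.52 and 1.44 in those fits. The ligands were picked on this contrast, so these counts describe the set and nothing is read from them. In bulk RNA, fewer cells of a type and less RNA per cell, or more of either, cannot be told apart.

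None of the 7 ligands carried GCAGAAT, a heptamer picked earlier from genes that fell in these same libraries, in its longest annotated 3′ untranslated region (417 to 2379 bases). It was present in 11.1% of 10668 tested genes with at least 50 such bases. At that share its absence from 7 genes is unremarkable, and nothing is read from it.

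The receptors and co-receptors of these ligands were examined next. The tyrosine kinase receptors of the VEGF family were at or near 0 in every library. Flt1 read 0.01 to 0.06 FPKM, Flt4, the receptor of VEGFC, 0.01 to 0.07 FPKM, and Kdr, the main receptor of VEGFA, 0.0 to 0.01 FPKM. In contrast, both neuropilins, co-receptors that bind VEGF ligands and the axon guidance semaphorins, were well expressed. Nrp1 read 12.38, 7.13 and 12.88 FPKM with si-NC and 3.32, 7.75 and 10.84 FPKM with si-circCpsf6, with overlapping groups. Nrp2 read 12.78, 16.06 and 17.01 FPKM with si-NC and 10.11, 20.11 and 16.17 FPKM with si-circCpsf6. Neither passed the test (limma adjusted p = 0.437 for Nrp1 and 0.97 for Nrp2), and neither had an unadjusted p under 0.05 or was called by the q-values of the authors' deposited table. The sign of the Nrp2 difference, -0.02 on the log2(FPKM + 1) scale, turned to 0.014 without si-NC replicate 2, 0.053 without si-NC replicate 3 and 0.235 without si-circCpsf6 replicate 1.

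Among PDGF receptors, Pdgfrb rose. This receptor of PDGFB, a marker of pericytes and fibroblasts, read 1.57, 1.45 and 0.35 FPKM with si-NC and 4.31, 4.24 and 4.88 FPKM with si-circCpsf6. The groups did not overlap, and the log2(FPKM + 1) difference was 1.42 with a standard error of 0.26 (limma adjusted p = 0.0455). The call was lost with a pseudocount of 0.1 FPKM, with no filter on low values and with any 1 library left out (limma adjusted p from 0.0787 to 0.141 over those fits), and with a mean of at least 5 FPKM required the gene was not tested. It was kept under median centring (0.0391) and without the intensity trend (0.0457). Pdgfra, the receptor of PDGFA and PDGFC, read 0.4, 0.6 and 0.26 FPKM with si-NC and 0.85, 0.62 and 0.76 FPKM with si-circCpsf6. It was higher in all 3 si-circCpsf6 libraries but below the level required for the test. Pdgfrl, a receptor-like gene, stayed at or below 0.13 FPKM. Pdgfb, whose product binds PDGFRB, was at most 0.44 FPKM in any library, and Pdgfd at most 0.02 FPKM.

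**Figure D3:**
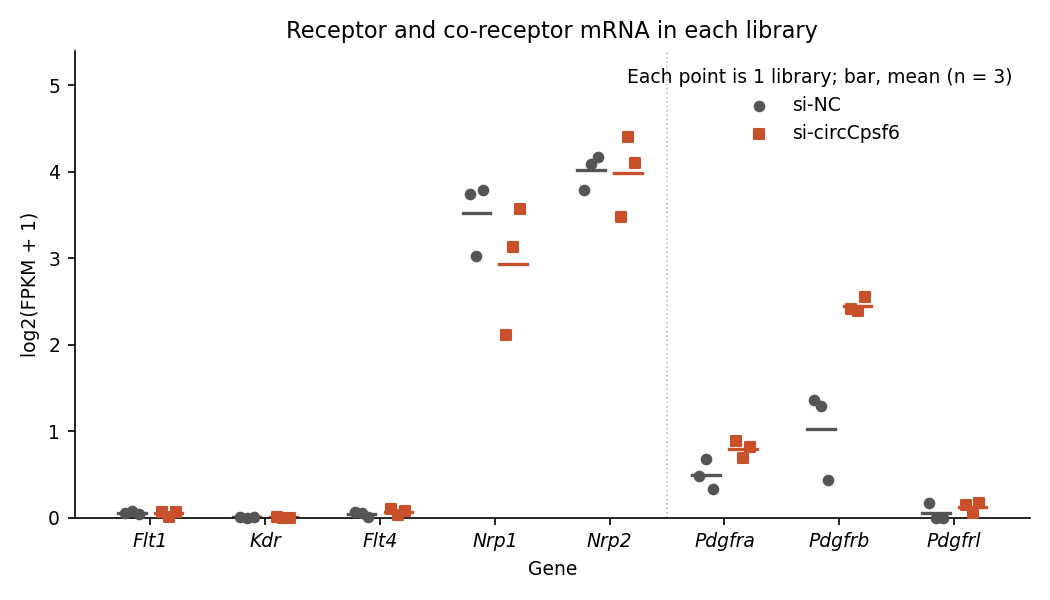
log2(FPKM + 1) of VEGF receptors and co-receptors (left of the dotted line) and PDGF receptors (right) in each library, with bars at group means. Flt1, Kdr and Flt4 lie at the axis in both groups, the neuropilins overlap between groups, and Pdgfrb is higher in all 3 si-circCpsf6 libraries.

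Because Pdgfrb and the VEGF receptors mark other cell types, marker lists were read beside them, and their part in the Pdgfrb result was not tested. Pdgfra, also on the fibroblast and mural list, was higher without overlap, as given above, and was left out with Pdgfrb from the next counts. Of the 10 fibroblast and mural markers other than these receptors, 8 were below 1 FPKM in both groups. Their summed level was 2.25 to 14.6 FPKM with si-NC and 2.21 to 12.54 FPKM with si-circCpsf6, overlapping ranges. The sum was high in replicate 1 of both groups. Acta2, a smooth muscle actin, read 4.52, 0.23 and 0.24 FPKM with si-NC and 4.63, 0.13 and 1.05 FPKM with si-circCpsf6 (limma adjusted p = 0.905). Its difference ran from -0.419 to 0.931 with single libraries left out. Of the 11 endothelial and lymphatic markers other than receptors, 9 were below 1 FPKM in both groups, and the lymphatic genes Prox1 and Lyve1 were listed at 0 in all libraries. Their summed level was 3.14 to 3.83 FPKM with si-NC and 1.94 to 4.68 FPKM with si-circCpsf6. Vwf, which encodes von Willebrand factor, read 2.39, 1.9 and 2.1 FPKM with si-NC and 0.74, 0.23 and 1.1 FPKM with si-circCpsf6 (limma adjusted p = 0.0858), and Pecam1 was at 0.87 ± 0.25 and 1.44 ± 0.70 FPKM (limma adjusted p = 0.491). Tek and Erg went the other way from Vwf, higher without overlap, but averaged below 1 FPKM in both groups and were not tested. Tek read 0.21, 0.14 and 0.15 FPKM with si-NC and 0.42, 0.92 and 1.47 FPKM with si-circCpsf6. Erg was at 0.053 ± 0.046 and 0.193 ± 0.075 FPKM. All 7 macrophage and leukocyte markers were below 1 FPKM on average in both groups, Cd68 the highest at 0.44 to 1.21 FPKM and Adgre1 next at 0.06 to 0.54 FPKM.

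Of the markers of the labelled neuroblast type, 12 entered the fit. Their summed level was lower after silencing, 581.19 to 1075.36 FPKM against 1621.44 to 2684.17 FPKM. The largest part of that sum with si-NC was Chgb, a granule protein of neuroendocrine cells, at 1632 ± 510 FPKM with si-NC and 426 ± 211 FPKM with si-circCpsf6 (limma adjusted p = 0.065). Single markers went both ways, with 7 of the 12 differences below 0 and 5 above, and only Chga called. Mycn, the neuroblastoma oncogene, read 18.73, 6.74 and 12.56 FPKM with si-NC and 23.81, 19.38 and 23.82 FPKM with si-circCpsf6, higher without overlap (limma adjusted p = 0.18). Gata2, Gata3 and Stmn2 also had higher means with si-circCpsf6, with overlapping groups (limma adjusted p from 0.346 to 0.645). Chga, a second granule protein, fell from 234 ± 13 to 110.0 ± 22.5 FPKM (limma adjusted p = 0.0335), a call lost with no filter on low values (0.0992) and with any 1 library left out (0.0516 to 0.16). The part of this shift in the ligand levels was not tested.

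The remaining pathway genes were read from lists of the ligands' processing, antagonism, signalling and hypoxic control. Over 113 genes of these lists and of other growth factors and receptors, 65 entered the fit and 2 were called, both higher (Pdgfrb and Tgfb2), where 1.69% of all tested genes were called. Their median log2(FPKM + 1) difference was 0.07. Counts at looser limits are read against all tested genes, of which 10.2% were higher and 10.1% lower at an unadjusted limma p under 0.05. By the q-values of the authors' deposited table, 3.22% were higher and 2.29% lower.

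VEGFC and the PDGF precursors are cut by proteases before they are fully active. Of 8 genes of this processing list, 4 entered the fit and none was called by limma, with 2 higher and 1 lower at an unadjusted p under 0.05 (10.2% and 10.1% of all tested genes) and 1 higher by the q-values of the authors' deposited table (3.22%). Plat, the tissue plasminogen activator that releases active PDGFC, read 1.76, 1.72 and 1.19 FPKM with si-NC and 4.32, 2.21 and 3.9 FPKM with si-circCpsf6 (limma adjusted p = 0.118). Furin, a proprotein convertase that cuts the VEGFC precursor, read 7.69, 8.98 and 7.5 FPKM with si-NC and 13.2, 11.43 and 9.88 FPKM with si-circCpsf6 (limma adjusted p = 0.145). Both were higher in every si-circCpsf6 library than in any si-NC library, which held for 12.8% of all tested genes. Pcsk7, the only one lower at that unadjusted p and named for it, was at 4.40 ± 0.19 and 3.26 ± 0.50 FPKM (limma adjusted p = 0.227). Its groups did not overlap either, in the lower direction, which held for 14.0% of all tested genes. The final step of VEGFC activation can be carried out by the protease ADAMTS3 with its cofactor CCBE1. Adamts3 was listed at 0 in all libraries and Ccbe1 at no more than 0.01 FPKM.

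Of 9 secreted binders and antagonists, 5 entered the fit and none was called by limma. All 5 differences were above 0, from 0.07 to 0.90 (median 0.67, against -0.02 over all tested genes). Over all 12974 tested genes, 6128 differences were above 0. At an unadjusted p under 0.05 there were 2 higher, Sema3f and Col18a1 (10.2% of all tested genes), and 1 was higher by the q-values of the authors' deposited table (3.22%). Sema3f, a semaphorin that binds NRP2, was at 1.50 ± 0.41 and 3.25 ± 1.01 FPKM with si-NC and with si-circCpsf6 (limma adjusted p = 0.133). Col18a1, whose collagen releases the vessel growth inhibitor endostatin, was at 0.85 ± 0.40 and 1.92 ± 0.51 FPKM (limma adjusted p = 0.16).

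Genes that act just below the receptors lay on both sides of their si-NC levels. Of 27, 25 entered the fit, with 11 differences above 0, 14 below and a median of -0.02. None was called by limma, with 5 higher and 0 lower at an unadjusted p under 0.05 (10.2% and 10.1% of all tested genes) and 1 higher by the q-values of the authors' deposited table (3.22%). The smallest unadjusted p values belonged to Plcg1, the phospholipase that docks on VEGF and PDGF receptors, and Map2k1, the kinase MEK1. Plcg1 was at 16.1 ± 0.41 and 24.0 ± 3.80 FPKM, and Map2k1 at 15.3 ± 2.11 and 23.1 ± 3.39 FPKM (limma adjusted p = 0.1 and 0.116). Named for their unadjusted p alone, the other 3 were Fyn, a Src family kinase, Nck2, an adaptor, and Nras, with limma adjusted p values of 0.165, 0.145 and 0.165.

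Vegfa is a textbook target of the hypoxia-inducible factors (HIFs), so their regulators and other hypoxia-induced genes were set beside it. Of 9 HIF regulators, 6 entered the fit and none was called by limma, with 1 higher at an unadjusted p under 0.05 (10.2% of all tested genes) and 0 by the q-values of the authors' deposited table. Hif1a, the inducible subunit, was at 16.4 ± 0.51 and 18.5 ± 4.84 FPKM (limma adjusted p = 0.747; its difference was -0.024 without si-circCpsf6 replicate 2), and its partner Arnt at 2.96 ± 0.53 and 4.55 ± 1.17 FPKM (0.237). Of 13 tested hypoxia-induced genes, 7 differences were above 0 and 6 below (median 0.13), and none was called by limma. At an unadjusted p under 0.05 there were 3 higher and 3 lower (10.2% and 10.1% of all tested genes), and 1 of each by the q-values of the authors' deposited table (3.22% and 2.29%). Adm, which encodes the vasodilator peptide adrenomedullin, read 2.18, 3.57 and 1.86 FPKM with si-NC and 0.84, 0.24 and 0.47 FPKM with si-circCpsf6 (limma adjusted p = 0.0558). Ero1l, an oxidase of the endoplasmic reticulum, read 24.31, 23.74 and 13.58 FPKM with si-NC and 28.63, 61.88 and 58.64 FPKM with si-circCpsf6 (limma adjusted p = 0.11). The others under that unadjusted p, named for it, were the glucose transporter gene Slc2a1 and Ndrg1 on the higher side and Ankrd37 and Pfkfb4 on the lower side (limma adjusted p from 0.133 to 0.214). The part of hypoxia signalling in the Vegfa difference was not tested.

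**Figure D4:**
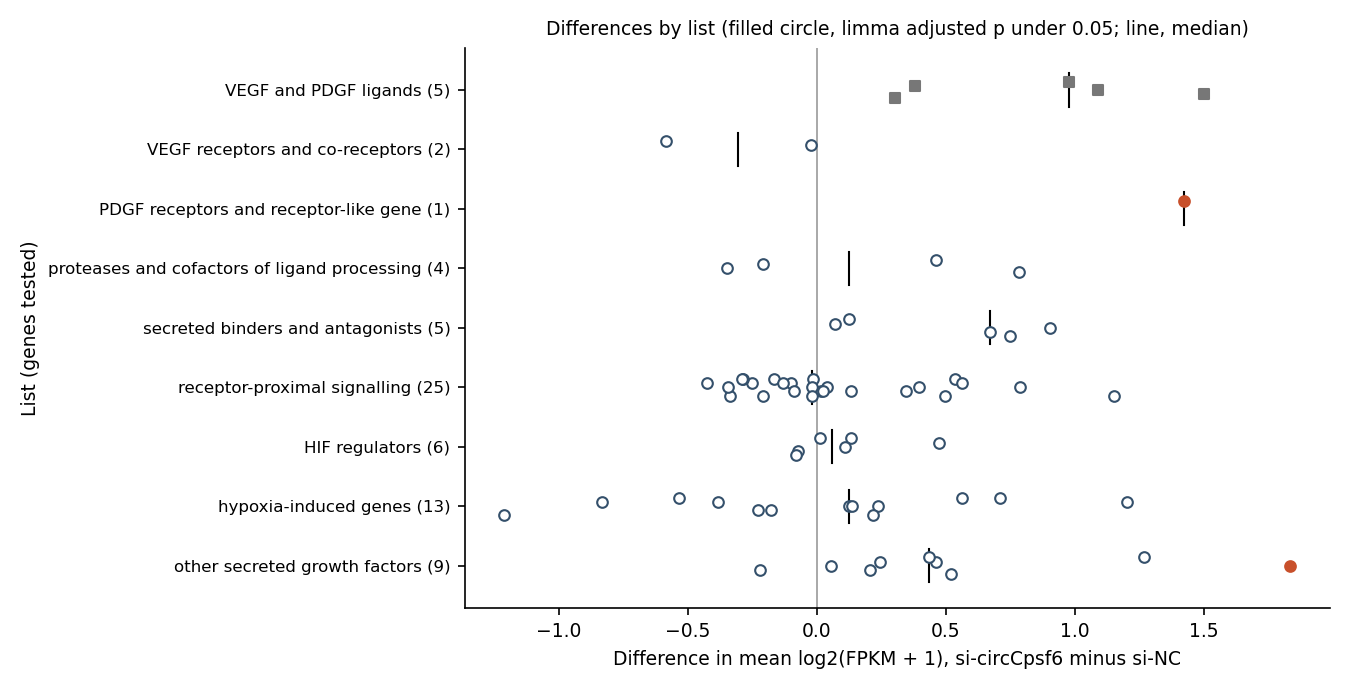
Difference in mean log2(FPKM + 1), si-circCpsf6 minus si-NC, for each tested gene of the lists, with the ligands as grey squares (no test shown), genes not called as open circles, called genes as filled circles and a line at each median. The 5 tested ligands lie between 0.30 and 1.50, receptor-proximal signalling genes spread to both sides of 0, and the filled circles are Pdgfrb and Tgfb2.

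Finally, genes with expression profiles nearest to each ligand over the 6 libraries were found by the root mean square difference of log2(FPKM + 1) after each gene's mean was taken off. Vegfc itself departed from a flat profile by 0.76 on this measure. Its nearest gene was Dlg3, a synaptic scaffold gene, at a distance of 0.11, with 1.66 ± 0.59 FPKM with si-NC and 6.38 ± 0.16 FPKM with si-circCpsf6. Next came Oasl1, an interferon-induced gene (0.16), Stom, which encodes the membrane protein stomatin (0.20), Wipi1, which acts in autophagosome formation (0.20), and Ctla2a, an inhibitor of cysteine proteases (0.20). Stom was the most abundant of these, at 83.0 ± 15.2 FPKM with si-NC and 196 ± 14.9 FPKM with si-circCpsf6. The nearest genes to Vegfa were Vwa5b1 (0.11) and Chrd, which encodes the bone morphogenetic protein antagonist chordin (0.14), both lowest in si-NC replicate 3 as Vegfa was. Those nearest to Pgf were Tmco4 (0.12) and H2-Q4 (0.14), to Vegfb Gm48626 (0.04) and Rpl31-ps10 (0.05), and to Pdgfa Gm48849 (0.05) and Usp29 (0.07). With 6 libraries in 2 groups, any gene with a like difference between the groups lies near.

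**Figure D5:**
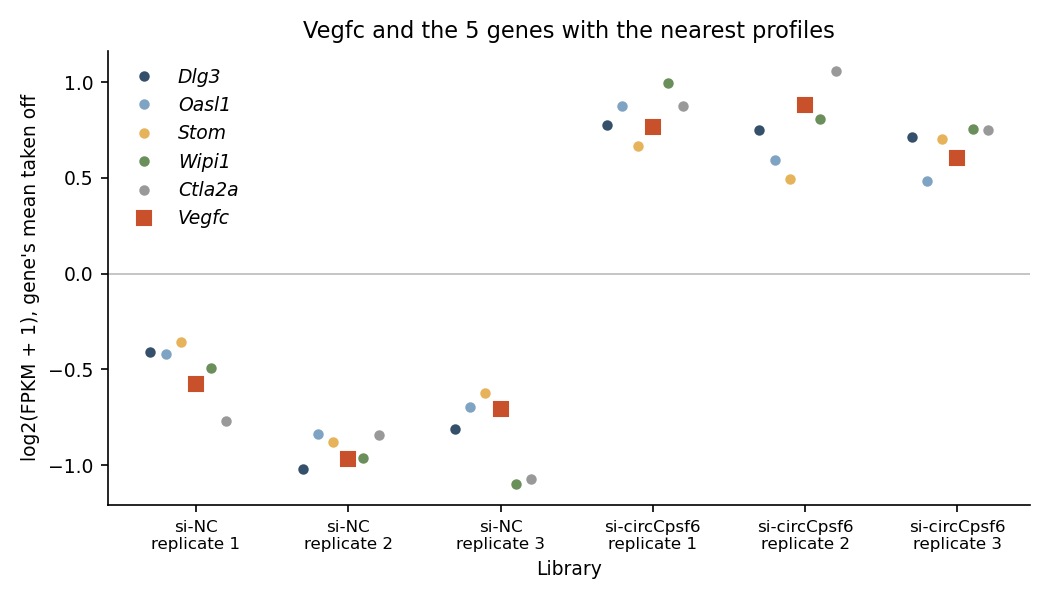
log2(FPKM + 1) with each gene's mean over the 6 libraries taken off, for Vegfc (squares) and its 5 nearest genes (circles, shifted sideways for legibility), 1 position per library. All 6 genes lie below 0 in the si-NC libraries and above 0 in the si-circCpsf6 libraries.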

How the data were processed

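The table deposited for the series gives FPKM per gene and library, per the file headers, with 2 decimals. Per the file headers, further columns hold a ratio (fold change), its log2, and p-values and q-values made by the authors with a test that the sources used here do not name. Bowtie 0.12.2 appears in the submitters' processing notes, as do mm8 and mm9, with no role given for any of them. A small RNA preparation kit is named for the libraries, per the labels' protocols. Sample titles gave the groups and replicate numbers.

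Genes averaging 1 FPKM or more over all 6 libraries entered a limma 3.58.1 fit (R 4.3.3) on log2(FPKM + 1), which understates changes of low genes, with a single group term, the trend option and Benjamini-Hochberg adjustment (threshold 0.05). The fit was tested on simulated data. An exact permutation test of 3 against 3 cannot go below 0.1. The ligands and the 13 gene lists (9 of pathway genes, 4 of markers) were chosen with earlier results of these data known. Named genes are the ligands, Cpsf6, all receptors and called genes of each list or the 2 with the smallest unadjusted p. They also include the 2 highest and any called markers of each marker list, and overlapping genes. The 5 nearest profiles to Vegfc and 2 to each other tested ligand are named too. Adamts3, Ccbe1, Prox1 and Lyve1, at or near 0, were named after their values were seen. So were Tek, Erg, Gata2, Gata3, Stmn2 and the further list genes, Mycn included, named for an unadjusted p under 0.05. Vegfd and Pdgfd are the other ligands of the families. Positions and 3′ untranslated regions came from GENCODE M21 (GRCm38), upstream windows from RefSeq (GRCm38.p6). Python 3.11.15 with numpy 2.4.6, pandas 2.3.3 and matplotlib 3.10.9 was used. Alternatives were median centring, a pseudocount of 0.1 FPKM, a mean of at least 5 FPKM, no filter at all, no trend, the replicate number as a block, the authors' q-values, and each library left out.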

Additional observations from a re-analysis of the deposited data

How the results depend on the processing

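The differences of the 5 tested ligands kept a positive sign in every fit that tested them. On the log2(FPKM + 1) scale they ran from 1.39 to 1.59 for Vegfc, 0.71 to 1.14 for Vegfa and 0.85 to 1.37 for Pgf. Those of Vegfb ran from 0.21 to 0.51 and those of Pdgfa from 0.17 to 0.49. With a pseudocount of 0.1 FPKM, which is another scale, the Vegfc difference was 1.72. Ligands whose groups did not overlap numbered 3 to 5 with 1 library left out, 5 of them without si-circCpsf6 replicate 3 and 4 without si-NC replicate 1. Leaving a library out can only keep or raise such a count. The share over all tested genes was not computed for those fits, so nothing is read from the rise. Neighbours in level order that were apart in si-NC numbered 4, and 5 with any 1 si-NC library left out, a count that can likewise only stay or rise.

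Calls depended on the fit. All genes gave 117 higher and 102 lower, against 4 and 9 with no filter and 418 and 297 by the q-values of the authors' deposited table. Leaving out single libraries gave 1 to 43 higher and 2 to 44 lower, the fewest when si-NC replicate 3 was dropped and the most when si-circCpsf6 replicate 1 was. Ligands called numbered 1, against 0 with no filter, 3 by the authors' q-values, and 0 or 1 with 1 library left out (0 when either si-NC replicate 3 or replicate 2 of si-circCpsf6 was dropped). Pathway genes called higher numbered 2, against 1 with a pseudocount of 0.1 FPKM, 0 with no filter, 1 with a mean of at least 5 FPKM, 7 by the authors' q-values (and 1 lower), and 0 to 1 with 1 library left out. The cause was not tested. Tgfb2 was not called with no filter (limma adjusted p = 0.0767) or with 1 library left out (0.05 to 0.0717), except without si-circCpsf6 replicate 1 (0.0274).

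Deviations of same-numbered libraries from their group means correlated at 0.10, 0.13 and 0.08, so the numbers were not taken to pair the samples, although each library correlated best with its own number. With the replicate number as a block, calls fell to 6 higher and 5 lower over all genes, 0 ligands and 0 pathway genes (limma adjusted p = 0.0746 for Pdgfrb, 0.0541 for Tgfb2 and 0.0615 for Chga), while 2781 genes had an unadjusted p under 0.05 (2633 without the block).

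With single libraries left out, signs turned for 4 of the named genes whose signs were checked. Genes below the filter, such as Pdgfb and Pdgfc, were not refitted. Signs were also not checked for some named genes above it, such as Mycn, Fyn, Nras, Fgf1 and those with the nearest profiles. The range was -0.214 to 0.017 for Cpsf6 (positive without si-circCpsf6 replicate 1), -0.228 to 0.235 for Nrp2 (0.02 in the authors' deposited table), -0.024 to 0.344 for Hif1a and -0.419 to 0.931 for Acta2. Nrp2 was positive with si-NC replicate 2 or 3 or si-circCpsf6 replicate 1 dropped, Hif1a negative with si-circCpsf6 replicate 2 dropped, and Acta2 negative with si-NC replicate 2 or 3 or si-circCpsf6 replicate 1 dropped. Depth per library is not known, so values below 1 FPKM have an unknown counting error.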

Other observations

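Among 36 other secreted growth factor genes, 9 entered the fit, 10 were listed at 0 in all libraries and 8 of the 9 tested differences were above 0 (median 0.43, against -0.02 over all tested genes). Tgfb2, a ligand of the transforming growth factor beta family, was the only one called in that list by limma and rose from 2.36 ± 0.42 to 11.1 ± 2.71 FPKM (limma adjusted p = 0.0151, where 1.69% of all tested genes were called). Its si-NC libraries read 2.58, 2.62 and 1.88 FPKM and its si-circCpsf6 libraries 8.4, 11.15 and 13.81 FPKM, so the groups did not overlap. Fgf1, Hbegf and Ptn, named for an unadjusted p under 0.05, were also at higher means with si-circCpsf6 but did not pass (limma adjusted p = 0.0757, 0.205 and 0.207). Fgf1, a fibroblast growth factor, was at 2.61 ± 0.60 and 8.08 ± 3.62 FPKM with si-NC and with si-circCpsf6, without overlap. The Tgfb2 call was lost with no filter on low values (0.0767) and when any 1 library other than si-circCpsf6 replicate 1 was left out (0.05 to 0.0717).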
